A study of Mus musculus with 16 samples.

Results

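The genes described here belong to the bone morphogenetic protein (BMP) and transforming growth factor beta (TGF-beta) pathways. They were chosen by gene symbol alone, with a pattern that covers BMP, GDF and TGF-beta ligands, their receptors, Smads, Smurf ubiquitin ligases, secreted antagonists, latent TGF-beta binding proteins and Id genes, and 50 of the 15876 genes in the deposited data matched it. Embryos of CD1 mice at embryonic day 8.5 (E8.5), E9.5 and E10.5 were dissected into small craniofacial regions, and the total RNA of each region and stage was sequenced as 1 library. The surface epithelium comprised 2 libraries, E9.5 epidermal ectoderm and the E10.5 olfactory pit. The facial tissues comprised 8 libraries, which were E8.5 mesoderm, E9.5 cranial mesenchyme, mandibular arch and maxillary arch, and E10.5 lateral nasal prominence, medial nasal prominence, mandibular arch and maxillary arch. The neural epithelium comprised 6 libraries, which were caudal brain, floor plate and non-floor plate at E8.5, and lateral prominence, central and dorsal control at E10.5. No mutant or treatment is named, and how many embryos were pooled for a library is not given in the sources used here.

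Ligands of this superfamily bind pairs of type I and type II serine/threonine kinase receptors, which phosphorylate the receptor-regulated Smads. BMP receptors act mainly through Smad1, Smad5 and Smad9, and TGF-beta and activin receptors through Smad2 and Smad3; both groups enter the nucleus with Smad4, while Smad6, Smad7 and the Smurf ligases dampen the signal. In the early head, BMP signals are known for patterning the dorsal neural tube, the pharyngeal arches and the facial prominences, and Id genes are long-known BMP targets.

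Promoters are shown for Acvr2a, the member with the widest range of levels (43.8, or 11.1 without the lowest library), for Id4, whose pattern over the libraries differed from that of the other Id genes, and for Bmp4, the ligand with the widest range. Each is the 250 bases before the RefSeq gene start, 5′ to 3′ on the strand of the gene, in build GRCm38.p6. Acvr2a is at chr2:48813859-48814108 (plus strand), Id4 at chr13:48260866-48261115 (plus strand) and Bmp4 at chr14:46390670-46390919 (minus strand). Capitals mark 2 short motifs that Smad proteins are known to bind, GGCGCC for the BMP Smads and CAGAC, read on either strand as CAGAC or GTCTG, for Smad3 and Smad4.
Acvr2a: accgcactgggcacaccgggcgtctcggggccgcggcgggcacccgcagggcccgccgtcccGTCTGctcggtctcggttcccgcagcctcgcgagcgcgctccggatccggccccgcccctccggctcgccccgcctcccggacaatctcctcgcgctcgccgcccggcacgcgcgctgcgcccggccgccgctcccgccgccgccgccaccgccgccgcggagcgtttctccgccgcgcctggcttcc
Id4: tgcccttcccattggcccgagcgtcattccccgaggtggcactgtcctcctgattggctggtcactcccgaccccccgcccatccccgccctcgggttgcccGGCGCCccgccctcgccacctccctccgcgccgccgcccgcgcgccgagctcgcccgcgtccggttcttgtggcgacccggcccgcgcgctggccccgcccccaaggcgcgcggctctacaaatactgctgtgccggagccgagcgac
Bmp4: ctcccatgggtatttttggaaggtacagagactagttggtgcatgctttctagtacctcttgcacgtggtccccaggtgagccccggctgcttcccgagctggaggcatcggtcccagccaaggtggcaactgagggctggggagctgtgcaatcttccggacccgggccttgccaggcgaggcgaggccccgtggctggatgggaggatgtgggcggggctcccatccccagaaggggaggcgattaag
Acvr2a held 1 CAGAC motif, at position -188 from the gene start, and Id4 held 1 GGCGCC motif, at position -148. Neither letter string stood in this Bmp4 window. Of 32851 promoter windows of this length in the RefSeq table, 9.59% held GGCGCC and 42.2% held CAGAC. For 33 of the 50 genes the table had an entry, 42 windows in all, of which 12 held GGCGCC and 21 held CAGAC. Such a match describes the letters and not a bound site.

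The deposited values are ratios, in which each gene was divided by its own median over the 16 libraries after low values had been raised to a floor. A level is therefore given here as a multiple of the lowest value of that gene over the 16 libraries, so that 1 is the lowest. For 33 of the 50 genes several libraries shared the lowest value. The level is then a multiple of the floor, and a fold over a library at the floor is a lower bound. For the other 17 genes 1 library alone was lowest, and whether its value lay at the floor cannot be told. Levels compare libraries for 1 gene and never genes with each other. They are as deposited, whereas folds and fitted differences are relative to the median gene, after the shift of each library was removed. That shift was -0.82 on the log2 scale in the E10.5 maxillary arch, -0.70 in the E10.5 mandibular arch and -0.38 in the lateral nasal prominence, and between -0.28 and 0.40 in the other 13 libraries. Of all genes with a shared lowest value, 74.3% to 81.5% were at it in the E10.5 arches and the lateral nasal prominence. The share was 63.8% to 72.4% in the E10.5 neural libraries and 50.6% to 59.1% in the others.

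The library labelled E10.5 medial nasal prominence went against its label. Its 8 facial mesenchyme markers had a mean log2 level of 0.0039, against 3.07 to 4.27 in the other 7 facial libraries, while its 7 neural epithelium markers averaged 3.58. The titles of the E10.5 central and dorsal control libraries are exchanged with the column headers inside their files, so they are called the libraries labelled central and labelled dorsal control. In bulk tissue, fewer cells of a type and less RNA per cell cannot be told apart.

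Among the ligands, Bmp4, a regulator of facial outgrowth and dorsal neural fate, covered the widest range. Its level was 16.1 in the E8.5 floor plate, 12.2 in the olfactory pit and 6.20 in the epidermal ectoderm. In the facial libraries it was 4.87 in the E10.5 maxillary arch, 3.66 in the lateral nasal prominence and 2.54 in E8.5 mesoderm, and between 1 and 1.47 in the other 5. The floor plate was the only neural epithelium library above the lowest value of Bmp4, and its level lay above all others. In the floor plate library 3 of 8 surface epithelium markers were high, with Krt18 at 8.32, Krt19 at 8.69 and Krt8 at 6.49, while Cdh1, Cldn6, Esrp1 and Trp63 were at their lowest value and Epcam at 1.59. The mean log2 level of the 8 was 1.19 there, against 0 to 0.35 in the other 5 neural libraries and 4.02 to 4.28 in the surface epithelium. Hand1, a mesodermal factor, and Postn, Acta2 and Col1a1, genes of matrix and smooth muscle, were also highest in the floor plate library, at 49.5, 32.5, 21.2 and 15.6, and were chosen after their values were seen. Its 4 floor plate markers had a mean log2 level of 4.32. The part of other tissue in the Bmp4 level was not tested. Bmp2, a close relative of Bmp4, reached 5.23 in the epidermal ectoderm and 1.79 in the floor plate and was at its lowest value in the other 14 libraries. The epidermal ectoderm also led for Bmp5, at 4.17, ahead of E8.5 mesoderm, at 2.10. For its relative Bmp7 the order was the reverse, with 2.45 in the epidermal ectoderm and 2.81 in mesoderm.

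Gdf11, an anterior-posterior patterning ligand that also restrains neurogenesis in the olfactory epithelium, was at 4.03 both in the olfactory pit and in the library labelled dorsal control, and lowest in E8.5 mesoderm. Gdf3, a ligand known from early embryos, was highest in the 3 E10.5 neural libraries, at 4.70 to 5.16. The remaining members of the family stayed low. Bmp3 did not exceed 1.54, Gdf6 1.88, Bmp8b 1.26, Gdf10 1.19 and Gdf1 1.18, and the RefSeq record of Gdf1 overlaps that of Cers1, so their reads cannot be told apart. Of the 50 genes, 6 were above the lowest value in 1 library and 12 in 1 or 2 libraries.

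Tgfb2, the TGF-beta ligand with the wider range, had a level of 13.8 in the olfactory pit, 6.22 in the floor plate, 5.89 in cranial mesenchyme, 4.42 in the lateral nasal prominence and 3.66 in the epidermal ectoderm. It was at its lowest value in all 5 neural epithelium libraries other than the floor plate, as well as in the E9.5 maxillary arch and the library labelled medial nasal prominence. Tgfb1 was above its lowest value in E8.5 mesoderm, at 2.32, and in the E9.5 maxillary arch, at 1.37, and nowhere else.

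**Figure D1:**
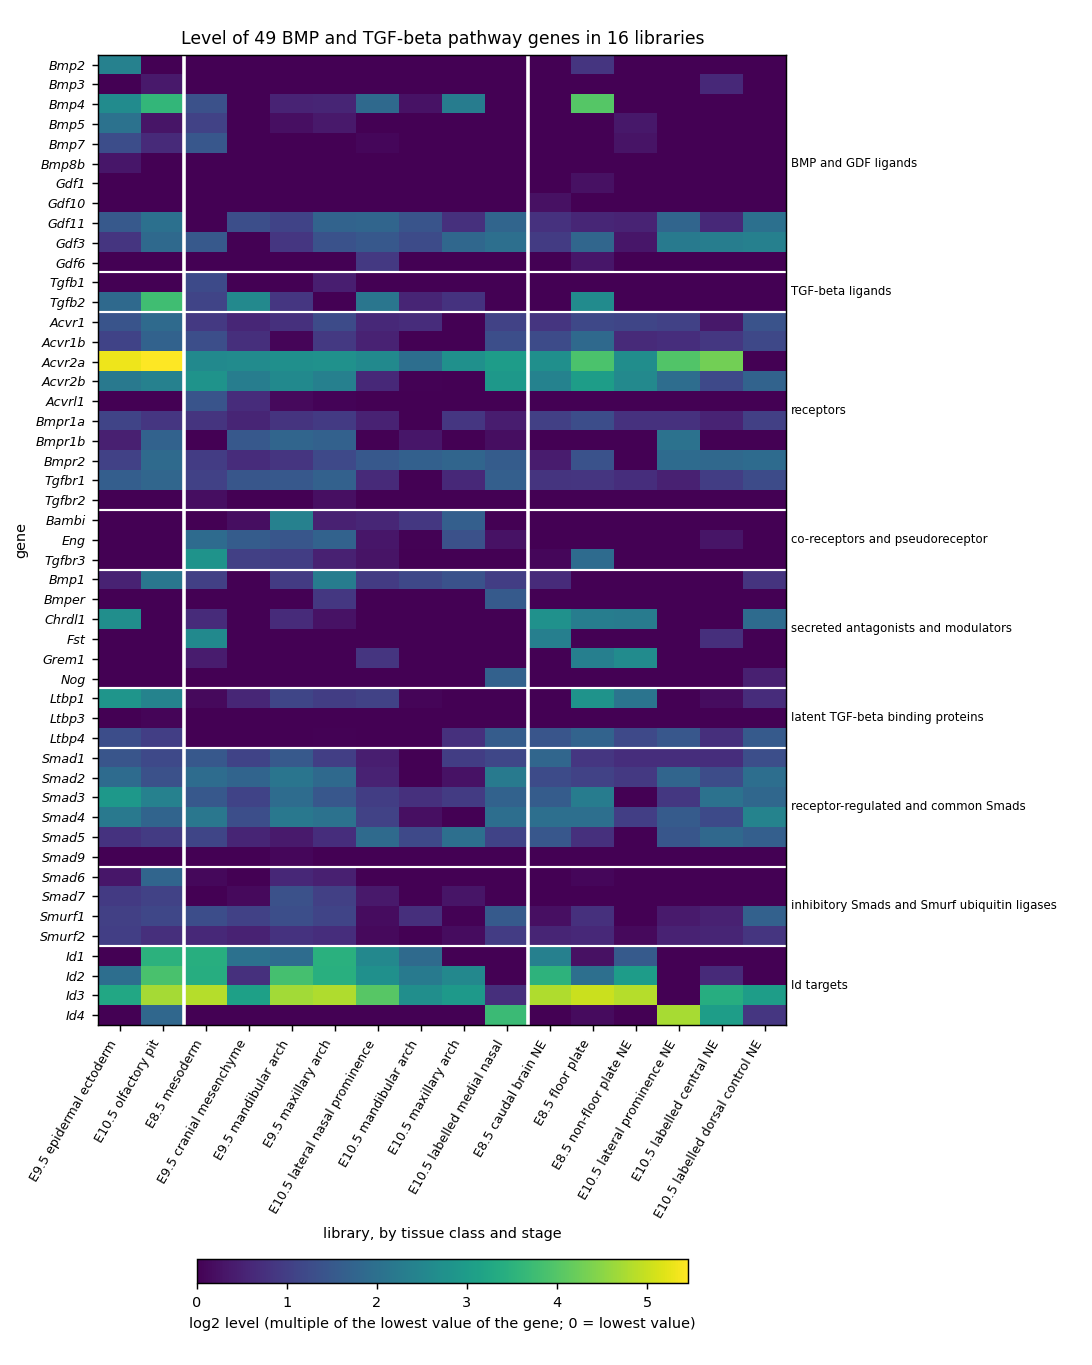
Log2 level of 49 of the 50 genes (rows, grouped by role) in each of the 16 libraries (columns, grouped as surface epithelium, facial tissues and neural epithelium, and ordered by stage in each), where 0 is the lowest value of the gene. Acvr2a stands out in epidermal ectoderm and olfactory pit, Id3 is high at E8.5, and Id4 is bright in the lateral prominence and the library labelled medial nasal prominence.

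Among the receptors, Acvr2a, a type II receptor for activins and several BMPs, covered the widest range. Its level was 43.8 in the olfactory pit and 39.6 in the epidermal ectoderm. It was between 3.93 and 8.12 in the 8 facial libraries, and between 6.35 and 19.5 in 5 neural libraries. The library labelled dorsal control was at 1, the lowest of all 16. The RefSeq record of Acvr2a (chr2:48814109-48903264) overlaps that of Orc4, a replication gene, and whether counting used the strand is not stated, so reads from the overlap cannot be told apart. Acvr2b, the other activin type II receptor, followed another order. Its level was 5.30 to 8.14 in the 3 E8.5 neural libraries, 7.02 in mesoderm and 7.49 in what is labelled medial nasal prominence. It was 1 in the E10.5 maxillary arch, 1.02 in the E10.5 mandibular arch and 1.56 in the lateral nasal prominence, the 3 libraries with the lowest shift. The other libraries lay between 2.31 and 6.02.

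Bmpr1b, a BMP type I receptor, was at or near its lowest value in most libraries. Its level was 4.14 in the E10.5 lateral prominence neural epithelium, 3.41 and 3.22 in the E9.5 mandibular and maxillary arches, 3.28 in the olfactory pit and 2.83 in cranial mesenchyme. It did not exceed 1.40 in the other 11 libraries, among them all 3 E8.5 neural libraries. Bmpr1a, another BMP type I receptor, varied less, between 1 and 2.44. The TGF-beta receptors Tgfbr1 and Tgfbr2 did not exceed 3.51 and 1.17, and the type I receptors Acvr1 and Acvr1b did not exceed 3.68 and 3.65.

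Some of the receptors are known from blood vessels. Eng (endoglin), a TGF-beta co-receptor of endothelial cells, was above its lowest value in 8 of 8 facial libraries, at 1.02 to 3.76, in 0 of 2 surface epithelium libraries and in 1 of 6 neural libraries, at 1.25. Acvrl1, the type I receptor that acts with endoglin, reached 2.67 in E8.5 mesoderm and 1.61 in cranial mesenchyme. Tgfbr3 (betaglycan), a co-receptor that presents TGF-beta2, had levels of 6.98 in mesoderm, 3.75 in the floor plate, 2.06 in cranial mesenchyme, 1.98 in the E9.5 mandibular arch and at most 1.41 elsewhere. The summed level of 8 measured endothelial markers ran from 17.0 to 89.2 in the facial libraries, from 8.28 to 8.34 in the surface epithelium and from 8 to 11.9 in neural epithelium, where Emcn, Kdr and Tie1 were at their lowest value in every library. The part of endothelial cells in these levels was not tested, and none of Eng, Acvrl1 and Tgfbr3 passed in facial over neural epithelium (limma adjusted p = 0.24, 0.351 and 0.38). Bambi is a pseudoreceptor that blocks signalling. It was at 5.25 in the E9.5 mandibular arch, 3.12 in the E10.5 maxillary arch, 1.84 in the E10.5 mandibular arch, 1.41 in the E9.5 maxillary arch and at most 1.49 in the remaining facial libraries, and it was at its lowest value in all surface epithelium and neural libraries.

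Of the secreted antagonists and modulators, Bmp1 was above its lowest value in 11 libraries and Chrdl1 in 8. Grem1 was above it in 4, Fst in 3, and Nog and Bmper in 2 each. Chrdl1, a chordin-like BMP antagonist, had levels of 6.78 in caudal brain, 4.93 in the floor plate, 4.78 in the non-floor plate neural epithelium, 6.48 in the epidermal ectoderm and 3.72 in the library labelled dorsal control, and at most 1.59 elsewhere. Grem1, a BMP antagonist, had levels of 6.23 in the non-floor plate neural epithelium and 5.12 in the floor plate, and was at its lowest value in caudal brain. Outside neural epithelium it was above that value only in the lateral nasal prominence, at 1.78, and mesoderm, at 1.34. Fst (follistatin), which binds activin, showed the reverse among those 3 libraries, with 5.09 in caudal brain and its lowest value in the floor and non-floor plate. Its only other levels above the lowest were 6.04 in mesoderm and 1.67 in the library labelled central. Nog (noggin), a BMP antagonist, was above its lowest value only in the library labelled medial nasal prominence, at 3.22, and in that labelled dorsal control, at 1.40. Bmper, a modulator of BMP activity, reached 2.93 in the library labelled medial nasal prominence. Bmp1, which the symbol places among BMPs although it encodes a protease that cleaves chordin, reached 4.89 in the E9.5 maxillary arch and 4.39 in the olfactory pit.

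The latent TGF-beta binding proteins hold TGF-beta in the matrix in an inactive form. Ltbp1 had levels of 7.16 in the epidermal ectoderm, 6.93 in the floor plate, 5.43 in the olfactory pit and 4.27 in the non-floor plate neural epithelium, and at most 2.20 in the other 12 libraries. The floor plate, olfactory pit and epidermal ectoderm, which had the 3 highest levels of Bmp4, also had the 3 highest levels of Ltbp1. The same 3 libraries were highest for Smad3 and for the surface epithelium marker Krt18. This ranking was picked after the values were seen, and no share of all genes with it was computed. Ltbp4 was between 1.66 and 3.31 in the 6 neural libraries and Ltbp3 did not exceed 1.06 in any library.

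For Smad3, Smad4 and Smad5, 15 of the 16 libraries lay above the lowest value, since 1 library alone was lowest. The number of libraries above the lowest value was 7 for Smad7, 6 for Smad6 and 1 for Smad9. Smad3, a TGF-beta and activin Smad, was highest in the epidermal ectoderm, at 7.51, the olfactory pit, at 5.26, and the floor plate, at 4.90, and between 1 and 4.18 in the other 13 libraries. Smad4, the common partner, lay between 3.94 and 5.45 in 8 libraries and was between 1 and 3.37 in the other 8, lowest in the E10.5 maxillary arch. Smad5, a BMP Smad, was highest in the E10.5 maxillary arch, at 3.99, and the lateral nasal prominence, at 3.68. Smad9 did not exceed 1.06. The inhibitory Smads were highest outside neural epithelium, Smad6 in the olfactory pit, at 3.45, and Smad7 in the E9.5 mandibular arch, at 2.57, the olfactory pit, at 2.12, the E9.5 maxillary arch, at 2.06, and the epidermal ectoderm, at 1.90. Smad7 was at its lowest value in all 6 neural libraries, and Smad6 did not exceed 1.07 there. The Smurf ligases, which mark receptors and Smads for degradation, reached 3.22 for Smurf1 and 2.01 for Smurf2.

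The Id proteins are inhibitors of basic helix-loop-helix factors, and 4 of the 7 genes whose highest level was at least 10 times the lowest were Id genes. No share of all genes at this ratio was computed, and for Id1, Id2 and Id4 it is a multiple of the floor. Id3 was between 26.1 and 32.3 in all 4 E8.5 libraries, both E9.5 arches and the olfactory pit, and between 1 and 16.4 in the other 9. Id1 was highest in the olfactory pit, at 11.4, the E9.5 maxillary arch, at 11.0, and mesoderm, at 10.7. Id2 was highest in the olfactory pit, at 14.8, the E9.5 mandibular arch, at 14.4, and caudal brain, at 11.4. Id4 did not follow the other 3. Its level was 26.7 in the lateral prominence, 13.2 in the library labelled medial nasal prominence, 8.16 in that labelled central, 3.53 in the olfactory pit and 1.81 in that labelled dorsal control, and at most 1.12 in the other 11. The RefSeq record of Id4 overlaps that of A330033J07Rik.

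By library, the olfactory pit was the highest for 10 of the 50 genes (20.0%), against 7.43% of all genes, the floor plate for 7, against 9.499%, mesoderm for 6, against 10.2%, and the epidermal ectoderm for 6, against 9.86%. The last 3 counts were near the shares of all genes. These counts depend on the scaling. Relative to the median gene the E10.5 maxillary arch, with the lowest shift, was the highest for 17 genes and the olfactory pit for 8. The shift was removed from values at the floor as well. The 17 therefore include genes at their lowest value in that arch, such as Smad9, Ltbp3 and Tgfbr2. No share of all genes was computed on that scale. No gene of the 50 was at least 4-fold above each other library. A ratio of highest to lowest level of 5 or more was reached by 36.0% of the 50 genes and by 32.5% of all genes.

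The first comparison set the surface epithelium (2 libraries) against the facial libraries of E9.5 and E10.5 (7 libraries), with stage as a term. Acvr2a was higher in the surface epithelium, and it was the only one of 34 genes tested to pass an adjusted p of 0.05 and a 2-fold difference in limma. Across all genes tested, 0.659% passed. Its level was 39.6 in epidermal ectoderm and 43.8 in the olfactory pit, against a lowest of 3.93, a median of 6.58 and a highest of 8.12 in the facial libraries. The groups did not overlap. The fitted log2 difference of Acvr2a was 2.40 (SE 0.33, limma adjusted p = 0.0142). The adjusted p lost the threshold without epidermal ectoderm (0.179), the olfactory pit (0.125), the E9.5 mandibular arch (0.0727) or the E9.5 maxillary arch (0.0764), while the difference stayed between 2.25 and 2.56.

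**Figure D2:**
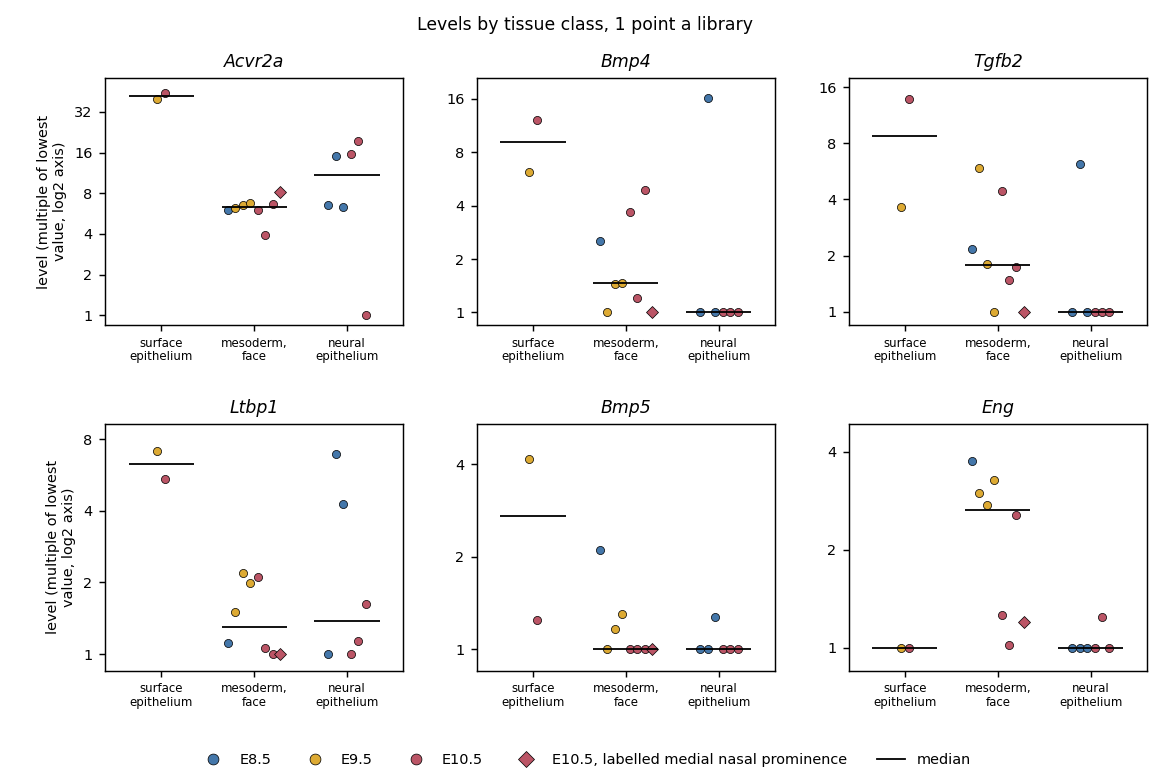
Level (log2 axis, multiples of the lowest value of the gene) of 6 genes in the surface epithelium, facial and neural epithelium libraries, 1 point a library coloured by stage, with the class median as a line and the library labelled medial nasal prominence as a diamond. Both surface epithelium points of Acvr2a lie far above the facial ones, and in the neural epithelium Bmp4 and Tgfb2 rest on the floor plate alone.

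A further 6 of the 34 genes had an unadjusted p under 0.05 without passing the threshold, a count for which no share of all genes was computed. Ltbp1 had levels of 7.16 and 5.43 in the surface epithelium, against 1 to 2.20 in the facial libraries. Smad3 had levels of 7.51 and 5.26, against 1.69 to 3.82. Bmp4 had levels of 6.20 and 12.2, against 1 to 4.87. For each of these 3 genes the groups did not overlap in the deposited levels, as for 7 of the 34 genes (20.6%) and 8.16% of all genes tested, but relative to the median gene those of Bmp4 did. The log2 differences of 1.70 for Ltbp1, 1 for Smad3 and 2.04 for Bmp4 had limma adjusted p-values of 0.135, 0.235 and 0.421. Eng was at its lowest value in both surface epithelium libraries, against 1.02 to 3.27 in the facial libraries. As deposited, with no shift removed, Ltbp1 passed as well (log2 difference 2.05, adjusted p = 0.0227), when 0.919% of all genes passed. The higher share of all calls was then 94.3%, against 78.9% relative to the median gene.

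The second comparison set all 8 facial libraries against the 6 neural epithelium libraries, again with stage as a term. No neural epithelium library was of E9.5, so the 3 facial libraries of E9.5 informed the spread but not the fitted difference. That difference rests on 1 facial library of E8.5 and 4 of E10.5, among them the one labelled medial nasal prominence. The facial levels given here include the E9.5 libraries. None of the 37 genes tested passed in limma, against 0.928% of all genes. An unadjusted p under 0.05 was reached by 5 of the 37, a count for which no share of all genes was computed. Ltbp4 lay nearest to the threshold. Its level had a lowest of 1, a median near 1 and a highest of 2.99 in the facial libraries, against a lowest of 1.66, a median of 2.76 and a highest of 3.31 in neural epithelium, a log2 difference of -0.81 (SE 0.27, adjusted p = 0.161). The facial library at 2.99 was the one labelled medial nasal prominence. Id1 had a lowest level of 1, a median of 3.95 and a highest of 11.0 in the facial libraries, against a lowest of 1, a median of 1.09 and a highest of 5.16 in neural epithelium, a log2 difference of 1.49 (SE 0.56, adjusted p = 0.217). The groups overlapped for both genes.

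Without the library labelled medial nasal prominence, Id1 passed in limma with a log2 difference of 1.90 (SE 0.48, adjusted p = 0.034), and 4.39% of all genes passed. Id1 was then the only one of the 50 genes to pass. Among the 8 facial libraries, that library had the lowest level of Id2, at 1, and of Id3, at 1.67, and the highest of Id4, at 13.2. Of the calls over all genes with all 14 libraries, 48.3% were higher in the facial libraries, and 60.5% as deposited.

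The third comparison set E10.5 neural epithelium against E8.5 neural epithelium, with 3 libraries each, and it does not depend on which E10.5 library is central and which dorsal control. Of 23 genes tested, 4 rose and 1 fell in limma, 21.7% in all, against 16.2% of all genes tested, of which 7.11% rose and 9.12% fell. The share of the pathway genes was thus near that of all genes. The genes that rose were Bmpr2, Gdf3, Smad5 and Gdf11, and the gene that fell was Id2. In the deposited levels the stages did not overlap for 9 of the 23 genes (39.1%), against 42.5% of all genes tested, so that a lack of overlap is common here.

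Markers of other cells differed between these stages as well. The summed level of 6 neuron markers ran from 22.3 to 39.4 at E10.5, against 13.4 to 22.1 at E8.5, where Dcx, Elavl3 and Neurod1 were at their lowest value. That of 8 erythroid markers ran from 72.9 to 112 at E10.5, against 8.17 to 12.5 at E8.5. Of 4 midbrain and hindbrain markers the mean log2 level was 4.66 in caudal brain, against 0 to 0.52 in the other 5 libraries. Their part in the stage differences was not tested.

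Bmpr2, the type II receptor for BMPs (chr1:59764279-59878081 in GRCm38.p6), had levels of 3.74 in the lateral prominence, 3.58 in the library labelled central and 3.75 in that labelled dorsal control, against 1.34 in caudal brain, 2.58 in the floor plate and 1 in the non-floor plate at E8.5. The stages did not overlap, and the means were 3.69 ± 0.0936 at E10.5 and 1.64 ± 0.832 at E8.5 (SD, n = 3 each). The log2 difference of Bmpr2 was 1.66 (SE 0.31, limma adjusted p = 0.0128). Gdf3 (chr6:122605403-122610087) had levels of 4.70, 4.98 and 5.16 in the same order at E10.5, against 1.94, 3.49 and 1.27 at E8.5. These did not overlap either. The log2 difference of Gdf3 was 1.64 (SE 0.32, limma adjusted p = 0.0147).

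Smad5, the BMP Smad, and Gdf11 rose less, and their stages overlapped in the deposited levels. Smad5 had levels of 2.75, 3.59 and 3.12 at E10.5, against 2.79, 1.70 and 1 at E8.5, a log2 difference of 1.27 (SE 0.34, limma adjusted p = 0.0360). Gdf11 (chr10:128880524-128891718) had levels of 3.43, 1.55 and 4.03 at E10.5, against 1.70, 1.51 and 1.45 at E8.5, a log2 difference of 1.21 (SE 0.34, limma adjusted p = 0.0420). In each gene 1 library of the higher stage lay within the range of the other stage. As deposited, neither passed, and Acvr2b and Id3 joined Id2 among the genes that fell, with Bmpr2 and Gdf3 higher; 19.8% of all genes passed then, and 14.9% of those calls were higher, against 43.8% relative to the median gene. Smad2, a TGF-beta and activin Smad, had an adjusted p of 0.0256 in limma, with a log2 difference of 0.96, under the 2-fold minimum.

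The Id genes parted in this comparison. Id2 (chr12:25093799-25096092) was at 1, 1.57 and 1 in the lateral prominence and the libraries labelled central and dorsal control, against 11.4, 3.98 and 8.05 in caudal brain, floor plate and non-floor plate at E8.5, with no overlap. The log2 difference of Id2 was -2.25 (SE 0.46, limma adjusted p = 0.0164), and it depends on the floor that 2 of the E10.5 libraries sat on. Id3 was at 1, 10.6 and 8.15 at E10.5, against 27.8, 32.3 and 28.8 at E8.5, without overlap and with a log2 difference of -2.37 (SE 0.80, adjusted p = 0.0719). Id1 was at its lowest value in all 3 E10.5 libraries, against 5.16, 1.18 and 2.90 at E8.5, with a log2 difference of -1.01 (SE 0.53, adjusted p = 0.207), and its stages overlapped relative to the median gene. More genes sat at a shared lowest value at E10.5 in general. Of all genes with such a value, 63.8% to 72.4% were at it in the E10.5 neural libraries, against 58.2% to 58.5% at E8.5.

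Id4 went the other way. Its level was 26.7, 8.16 and 1.81 at E10.5, against 1, 1.12 and 1 at E8.5, again without overlap. The log2 difference of Id4 was 3.19 (SE 0.999, limma adjusted p = 0.0599), and without a mean-variance trend in limma it passed, with an adjusted p of 0.0460, beside 16.2% of all genes. In the deposited levels the stages were thus apart for all 4 Id genes, lower at E10.5 for Id1, Id2 and Id3 and higher for Id4, as they were for 42.5% of all genes tested, and Id2 was the only one of them to pass the threshold. Id1, Id2 and Id4 met the filter of 3 libraries above the floor through the stage where they were high. That favours stages that lie apart, so the lack of overlap is no separate support for a change in them.

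**Figure D3:**
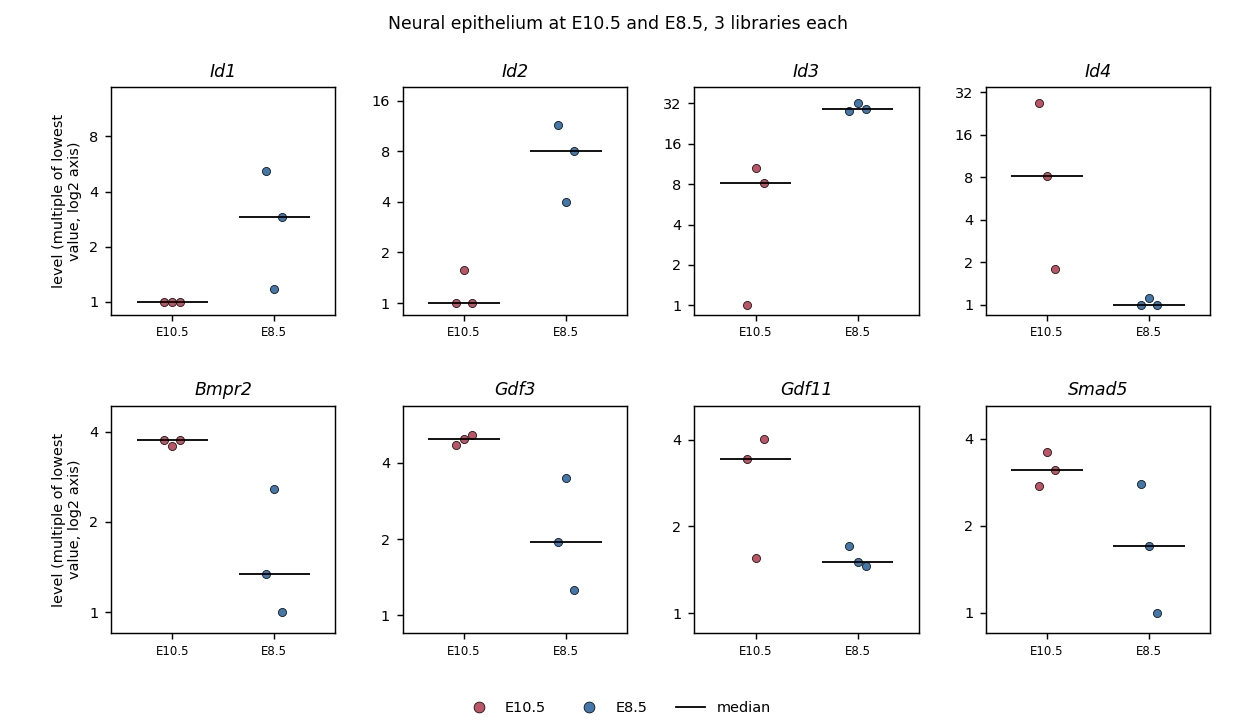
Level (log2 axis, multiples of the lowest value of the gene) of the 4 Id genes and of the 4 genes that rose, in the 3 E10.5 and the 3 E8.5 neural epithelium libraries, 1 point a library and the median as a line. For Id1, Id2 and Id3 all E10.5 points lie under all E8.5 points, and for Id4, Bmpr2 and Gdf3 above them.

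**Figure D4:**
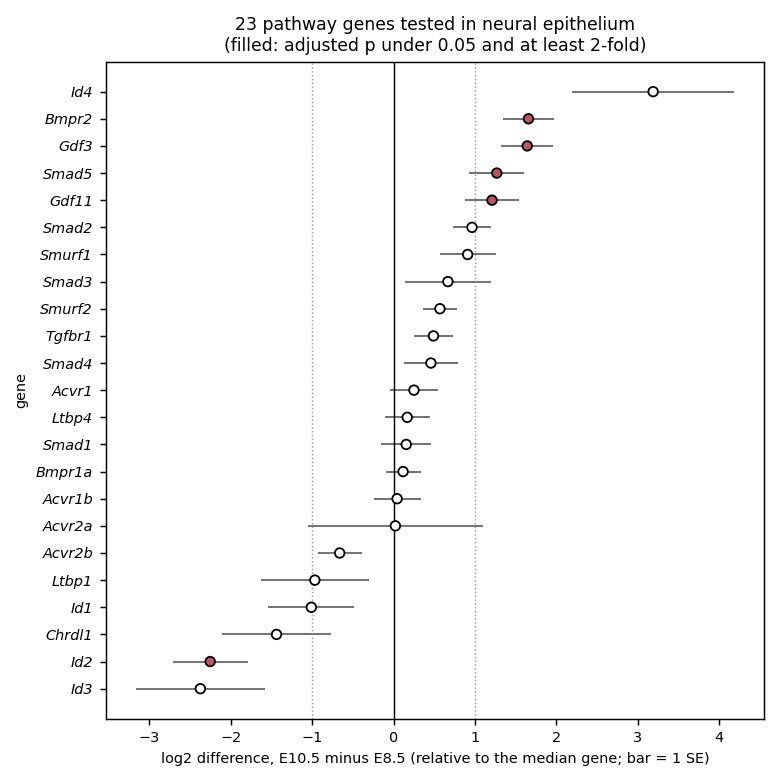
Log2 difference of E10.5 minus E8.5 neural epithelium for the 23 genes tested, relative to the median gene, with bars of 1 SE and filled points for the 5 that passed the threshold. Bmpr2, Gdf3, Smad5 and Gdf11 lie to the right, at 1.21 to 1.66, and Id2 to the left, at -2.25.

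Single libraries decided part of these calls. Leaving out 1 library at a time left between 1 and 6 of the genes past the threshold. Without the non-floor plate library Bmpr2 alone passed, without caudal brain Smad5 rose and Ltbp1 fell, and without the floor plate Bmpr2 and Gdf3 rose and Id2 fell. Smad5 and Gdf11 each lost the threshold when any 1 of 5 of the 6 libraries was left out.

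The fourth comparison used the 4 arch libraries, mandibular over maxillary with stage as a term and E10.5 over E9.5 with arch as a term. Between mandibular and maxillary arch, 0 of 33 genes passed in limma, 0 had an unadjusted p under 0.05 and 0% of all genes passed. Between E10.5 and E9.5, 0 of 33 passed, 8 had an unadjusted p under 0.05 and 0.0188% of all genes passed. No share of all genes was computed for the unadjusted p. Acvrl1 was among the 8 as higher at E10.5, although it was at its lowest value in both E10.5 arches. The shift was removed from values at the floor as well. The fit has 1 residual degree of freedom and called no change planted in simulated data, so these counts of 0 do not show that the arches or their stages were alike. Smad5 had levels of 2.29 and 3.99 in the mandibular and maxillary arches at E10.5, against 1.31 and 1.64 at E9.5, a log2 difference of 2.13 (SE 0.39, adjusted p = 0.0754). Bmpr2 had levels of 3.16 and 3.42 at E10.5, against 1.80 and 2.31 at E9.5, a log2 difference of 1.78 (SE 0.37, adjusted p = 0.0919). Much of both differences is the removed shift, since the levels are as deposited. The shift was -0.70 and -0.82 in the mandibular and maxillary arches at E10.5, against 0.30 and 0.35 at E9.5. In both genes all E10.5 levels lay above all E9.5 levels, but the stages did not overlap, in either direction, for 24 of the 33 genes (72.7%) and for 78.4% of all genes tested. Smad5 and Bmpr2 were the only ones of the 24 to be higher at E10.5 in the deposited levels. No share of all genes by direction was computed. As deposited, Acvr2b, Bmpr1b, Id3, Smad2 and Smad4 passed as lower at E10.5, beside 22.4% of all genes, and 2.86% of those calls were higher, against 50% relative to the median gene.

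The arches taken one stage at a time differed in a few genes, with 1 library each and therefore no test. A gene was counted at a 2-fold difference relative to the median gene when the higher of its levels was 5 or more. At E9.5, 2 of 6 genes that reached this level were counted between mandibular and maxillary arch, against 22.7% of all such genes. Bambi was 3.80-fold higher in the mandibular arch, at 5.25 against 1.41 in the maxillary arch. Id1 was 2.84-fold lower, at 3.80 against 11.0. At E10.5, 0 of 3 were counted, against 66.7% of all such genes. Id1 stood there at 3.68 in the mandibular arch and near 1 in the maxillary arch, the opposite order to E9.5. Bambi stood at 1.84 in the mandibular and 3.12 in the maxillary arch, also the opposite order. Between the lateral nasal prominence and the maxillary arch of E10.5, 1 of 4 was counted, against 65.3% of all such genes, and it was Id1, 4.53-fold higher in the lateral nasal prominence.

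**Figure D5:**
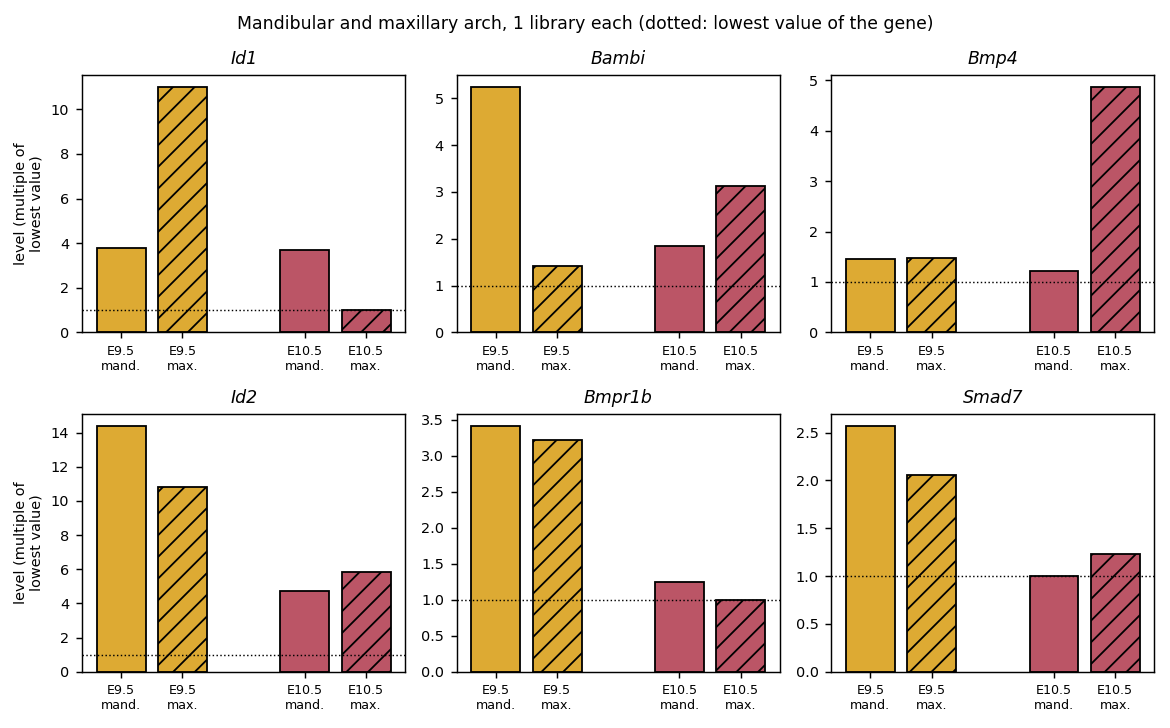
Level (linear axis from 0, multiples of the lowest value of the gene) of 6 genes in the mandibular and maxillary arch at E9.5 and E10.5, 1 library a bar, with hatched bars for the maxillary arch and a dotted line at the lowest value of the gene. Id1 and Bambi change their order between stages, and Bmp4 is at 4.87 in the E10.5 maxillary arch against 1.21 to 1.47 in the other 3.

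At E8.5, the floor plate, the ventral midline of the neural tube, was set against the non-floor plate neural epithelium, and 3 of 8 genes were counted, against 36.9% of all genes that reached the level. Bmp4 was at least 13.1-fold higher in the floor plate and Tgfb2 at least 5.06-fold higher, both at their lowest value in the non-floor plate. Id2 was 2.49-fold lower, at 3.98 in the floor plate against 8.05. Both higher genes are ligands. Caudal brain against the same library had 2 of 8 counted, against 33% of all such genes. Fst was at least 4.21-fold higher and Grem1 at least 7.53-fold lower in caudal brain.

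At E10.5, the lateral prominence neural epithelium against the library labelled dorsal control had 3 of 5 genes counted, against 53.9% of all such genes. Acvr2a was 16.7-fold and Id4 15.7-fold higher in the lateral prominence, and Id3 was 7.68-fold lower. The library labelled central against that labelled dorsal control had 3 of 5 counted, against 54.4%. Acvr2a was 22.2-fold and Id4 5.13-fold higher in the library labelled central, and Smad4 was 2.05-fold lower. Both comparisons share the library labelled dorsal control, which had the lowest level of Acvr2a of all 16 libraries.

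Of 40 further genes of the pathway outside the symbol pattern, 25 were measured, and those called were found in the E10.5 over E8.5 neural comparison alone. Of 17 tested there 5 passed, against 16.2% of all genes tested. Itgb8, a subunit of an integrin that activates latent TGF-beta, rose with a log2 difference of 2.68, and Skil, a Smad corepressor, rose with one of 1.68. Rgma, a BMP co-receptor of the neural tube, fell with -2.08, the corepressor Tgif1 with -1.69 and the corepressor Ski with -1.49. Ski and Skil, which are close relatives, thus moved in opposite directions. The levels of Rgma were 5.80, 5.68 and 5.48 in the lateral prominence and the libraries labelled central and dorsal control, against 25.4, 48.4 and 24.0 in caudal brain, floor plate and non-floor plate. Those of Itgb8 were 6.63, 7.40 and 5.45, against 1.50, 1.46 and 1. Neither gene overlapped between stages, as for 42.5% of all genes tested.

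Of 17 BMP-responsive genes outside the pattern, 4 were tested in that comparison and 2 rose, against 7.11% of all genes tested, among them Hey1, a Notch and BMP target, with a log2 difference of 1.87. The rest did not pass the filter, and 12 of the 17 were at their lowest value in all 3 E10.5 neural libraries. Of 12 TGF-beta-responsive genes, 3 were tested and 1 rose, Skil, which is also on the first list. The median log2 difference was -0.02 over the 17 further pathway genes, 1.53 over the 4 BMP-responsive and 1.34 over the 3 TGF-beta-responsive genes, against 0.25 over the 23 members and 0.02 over all genes tested. Over all 17 BMP-responsive genes the mean log2 level was 0.26 to 0.71 at E10.5, against 0.14 to 0.73 at E8.5. Over the 11 TGF-beta-responsive genes measured it was 0.10 to 0.77, against 0.05 to 1.77. These ranges overlapped, so the medians of the few genes tested do not stand for the lists. In the other 4 comparisons 0 genes of these lists passed in limma. An unadjusted p under 0.05 was reached by 5 of 41 in surface epithelium over facial and 11 of 42 in facial over neural. Between the arches 8 of 39 reached it, and between the arch stages 13 of 39. No share of all genes was computed for the unadjusted p, so these counts have nothing to be set against.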

How the data were processed

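Total RNA of 16 libraries was read as 50-base single-end reads at over 40000000 reads a library, per the labels' protocols, and p-values measure the spread between regions, since no library is a repeat of another. Bowtie, TopHat, TopHat2, Cufflinks and the mouse build mm9 are named in the submitters' processing notes, whereas their versions, the annotation and the use of strand are not given in the sources used. The deposited values are a ratio of each gene to its median over the 16 libraries, as the values themselves show, and the authors had raised low values to a floor. No total count of any library is held, which leaves the exact depth unknown and allows no interval for counting error.

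The shift of a library was the median log2 ratio of 7082 genes with no shared lowest value. Log2 ratios without it were fitted with limma 3.58.1 in R 4.3.3, with a mean-variance trend, leaving out genes that exceeded the floor in fewer than 3 libraries of a fit (2 for the arches). The threshold was an adjusted p (Benjamini-Hochberg) of 0.05 with a 2-fold difference. The code was tested on simulated data. Single libraries were compared without a test. Promoters come from RefSeq (GRCm38.p6), whose build differs from that of the files, so it served for names, overlaps and sequences only.

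The genes and lists were chosen with earlier results of these data known. Named with values were genes past the threshold in any fit, genes at least 4-fold above each other library and the 2 of widest range in each role, and the others with a range. Genes named outside that rule, such as Bambi, Eng, Tgfb2 or Fst, were chosen after their values were seen. Values of some genes are not reported here, although counts and sums include them. Alternatives were values as deposited, a pseudocount of 0.1, no filter, no fold minimum, other covariates, a level minimum of 2 and leaving out libraries.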

Additional observations from a re-analysis of the deposited data

Results flagged for a closer look

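In 9 of 74 group spreads, for 37 genes in the facial and neural epithelium libraries, 1 library stood apart from its class by Dixon's criterion. The usual rate of that criterion, about 1 in 20 groups, assumes normal values and does not hold for values at a floor. The count of 9 therefore has no chance rate to be set against. For Bmp4, Tgfb2 and Bmpr1b in neural epithelium, all other libraries of the class were at the lowest value. The same held for Fst and Id4 in the facial libraries. A total of 3 ligand and co-receptor genes stood apart in the floor plate among the neural libraries, Bmp4 at a level of 16.1, Tgfb2 at 6.22 and Tgfbr3 at 3.75. Bmpr1b stood apart in the E10.5 lateral prominence, at 4.14. Among the facial libraries, E8.5 mesoderm stood apart for Tgfbr3, at 6.98, and for Fst, at 6.04. The library labelled medial nasal prominence, whose markers go against its label, stood apart for Id4, high at 13.2, and for Id3, low at 1.67. Acvr1b was low in the E9.5 mandibular arch, at 1.05, although the E10.5 mandibular and maxillary arches were close to it.

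Id1 had opposite orders between the arches at the 2 stages. Its log2 difference, mandibular over maxillary and relative to the median gene, was 1.84 at E10.5 and -1.50 at E9.5, with 1 library each, and the difference between the stages was not tested.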

How the results depend on the processing

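No paired analysis was possible because each region and stage has 1 library and no replicate number pairs any; the arch fits carry stage or arch as a term. None of the log2 differences of the 6 genes that passed changed sign under the alternatives run, but as deposited the neural calls among the pathway genes were 2 higher and 3 lower, against 4 and 1. Of the alternatives for the 6 genes that passed, 54 kept the call and 22 lost it. In facial over neural, all-gene calls numbered 116, and 43 as deposited, 223 with no stage term, 0 with E10.5 libraries only and 539 without the library labelled medial nasal prominence, where 1 pathway gene passed instead of 0; leaving out 1 library gave 15 to 539, and 0 to 1 pathway genes. In surface epithelium over facial, all-gene calls numbered 76, and 126 with no filter and 44 with no stage term; leaving out 1 library gave 10 to 191, and 0 to 1 pathway genes, and 2 passed as deposited. In E10.5 over E8.5 neural epithelium, leaving out 1 library gave 679 to 1681 all-gene calls, against 1698, and 1 to 6 pathway genes. In E10.5 over E9.5 arches, all-gene calls numbered 2, and 2379 as deposited (5 pathway genes), 89 with the pseudocount, 1 with no filter, 120 with no arch term and 0 to 87 with 1 library left out; mandibular over maxillary gave 0 to 2. With 3 arch libraries that term was dropped, and a lone library was assumed to vary like the others. After seeing the data, a fit that keeps values at the floor (0 arch-stage calls), one with no mean-variance trend (41) and the exchange of the central and dorsal control names were added. With a level minimum of 2, the single-library counts became 8 for floor plate, 5 for caudal brain, 3 for E10.5 mandibular arch, 3 for lateral nasal prominence (2 as deposited), 6 for lateral prominence and 5 for the library labelled central. The causes were not tested. Depth in each library is unknown, differences under the floor cannot be seen, and 1 library a region leaves no measure of repeat error.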
